A study of Mus musculus with 36 samples.

Results

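Mlxipl, Mlxip and Mlx are the mouse genes for ChREBP, MondoA and Mlx. They were taken by name as 3 of the 52230 genes that could be counted in cultured mouse hepatocytes, and the 10 annotated transcripts of Mlxipl were also read singly. All 3 genes passed the filter on low counts and were among the 12177 genes tested.

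ChREBP is the glucose-responsive transcription factor of the liver. It binds DNA as a heterodimer with Mlx at carbohydrate response elements, which are pairs of E-boxes, and it raises genes of glycolysis, fructose metabolism and lipogenesis when hexose phosphates accumulate. MondoA, encoded by Mlxip, is its paralogue and uses the same partner. ChREBP-α starts at the first exon of the full-length gene, while ChREBP-β starts at an alternative upstream exon, lacks the N-terminal inhibitory domain and is itself a target of ChREBP. Glucokinase (GK) makes glucose 6-phosphate in hepatocytes, and its regulatory protein GKRP binds GK and holds it in the nucleus.

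RNA-seq was made from 36 hepatocyte cultures of 3 female mice aged 14 weeks, in 10 conditions. The labels give Gckr-446L for mice 1 and 2 and Gckr-446P/L for mouse 3, so that genotype and animal cannot be told apart. Hepatocytes received adenoviral vectors for human GKRP-446P (hP), human GKRP-446L (hL), mouse GKRP-446P (mP) or mouse GKRP-446L (mL), either alone (endogenous GK) or together with a vector for rat GK. The GK vector was also used alone (GK), and untreated cultures received no vector, so that exposure to virus and the vector's protein cannot be told apart in a comparison with untreated. Cultures with GK and a GKRP vector had 1 more vector than those with either alone, so the same limit applies there. All cultures were held with 10 nM insulin and 10 nM dexamethasone for 24 h in 5 mM glucose and then for 4 h in 25 mM glucose. Untreated and GK had 6 cultures each, 2 per mouse, and each of the other conditions had 3, 1 per mouse. Counts of the 2 cultures of a mouse were summed, giving 30 samples, and n below is the number of mice.

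Libraries held 3924674 to 10046158 reads (median 5980276). The summed level of 8 hepatocyte markers ran from 73220 to 137922 CPM (the usual scaling of counts to library size), and all 8 were detected. Markers of other cells were low and followed the mouse: 5 cholangiocyte markers summed to 143 to 245 CPM in mouse 1 but 15.4 to 22.9 in mouse 2 and 23.5 to 34.2 in mouse 3, and 6 stellate cell and fibroblast markers to 21.6 to 35.6, 123 to 155 and 63.0 to 84.3 CPM. Their part in the results below was not tested. The 8 macrophage markers summed to 222 to 335 CPM, the 6 endothelial markers to 50.5 to 113 CPM and the 4 lymphocyte markers to 0.81 to 4.69 CPM, with 1 of the 4 at 0. In bulk samples, fewer cells of a type and less RNA per cell cannot be told apart. In the GK cultures Gckr measured 54.4, 69.5 and 844.5 CPM in mice 1, 2 and 3. The value of mouse 3 came mainly from 1 culture with 1462 CPM, and leaving that culture out changed no call for Mlxipl, Mlxip or Mlx.

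Mlxipl lies on the forward strand at chr5:135118744-135168615 (GRCm39), Mlxip at chr5:123532794-123595995 and Mlx at chr11:100978080-100983043. Whether the libraries keep strand is not given in the sources used here. Genes on the opposite strand overlap all 3: Gm43500 within Mlxipl, Gm15747 at Mlxip and Psmc3ip at the 3′ end of Mlx. Reads of such partners cannot be told apart without strand.

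The first junctions of the α and β transcripts are shown because they set the isoforms apart. Mlxipl-210 starts at exon 1b, 17011 bases upstream of Mlxipl-201, and both join the same exon 2. Exon 1 is in capitals and exon 2 in lower case, from GRCm39. The exon 1b part lies at chr5:135118900-135118914, the exon 1 part of Mlxipl-201 at chr5:135136055-135136069 and the exon 2 part at chr5:135142481-135142495.
Mlxipl-210 (β): TCGCGTGGAGCTCAGtggcaagctggtctc
Mlxipl-201 (α): GAGCCTGGCTTACAGtggcaagctggtctc
The β junction occurred in 1 of the 10 transcripts and the α junction in 7. The study's primer pair for ChREBP-β is shown because it crosses this structure.
ChREBP-β forward: tctgcagatcgcgtggag
ChREBP-β reverse: cttgtcccggcatagcaac
The forward primer matched only Mlxipl-210, at its bases 149 to 166, while the reverse primer matched 8 of the 10 transcripts, at bases 217 to 235 of Mlxipl-210. The pair gives a product of 87 bases from the annotated model.

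The 250 bases before each start are shown for the α and β transcripts because the β start is known to respond to ChREBP itself. They were searched for the E-box CACGTG, which reads the same on both strands and is set in capitals.
Mlxipl-210, chr5:135118494-135118743, forward strand: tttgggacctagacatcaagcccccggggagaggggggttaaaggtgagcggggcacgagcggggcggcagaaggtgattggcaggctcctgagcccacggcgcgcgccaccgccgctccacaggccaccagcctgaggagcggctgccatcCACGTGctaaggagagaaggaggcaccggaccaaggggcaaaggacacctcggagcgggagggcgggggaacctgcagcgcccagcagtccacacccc
Mlxipl-201, chr5:135135505-135135754, forward strand: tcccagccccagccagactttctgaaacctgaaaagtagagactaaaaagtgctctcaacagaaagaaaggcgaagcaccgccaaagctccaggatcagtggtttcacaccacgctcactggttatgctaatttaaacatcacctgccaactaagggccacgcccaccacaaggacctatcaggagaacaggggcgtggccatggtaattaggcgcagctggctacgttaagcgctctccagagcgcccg
The window before Mlxipl-210 held 1 E-box, starting 98 bases before the start, at chr5:135118646-135118651. None of these letters occurred before Mlxipl-201 or in the window of Mlxip-201 (chr5:123532544-123532793). The window of Mlx-201 (chr11:100977876-100978125) held 1, starting 50 bases before the start. In all, 1978 of 32851 RefSeq promoter windows of this length (GRCm38.p6), or 6.02%, held CACGTG. The strict form with CACGTG at both ends of 5 bases of any kind was in none of the windows of the members. It was also in 0 of the 32851 RefSeq windows, so its absence says nothing about response elements here. Other spellings of the element were not searched for.

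ChREBP and Mlx were the abundant members and MondoA the scarce one. Per kb of Mlxipl-201, Mlxip-201 or Mlx-201, median levels over the 30 samples were 18.3 CPM for Mlxipl (range 9.51 to 29.1), 1.73 for Mlxip (1.03 to 2.62) and 23.4 for Mlx (14.9 to 38.2). By mean deposited TPM, summed over transcripts, Mlx ranked 1397, Mlxipl 3014 and Mlxip 10235 of the 12177 genes. The summed TPM of Mlx reached 598 in mouse 1 under GK+mL against a median of 54.6 over the samples. Reads per culture numbered 170 to 880 for Mlxipl, 164 to 490 for Mlx and 40 to 136 for Mlxip, so that counting error weighs most on Mlxip.

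The first question was how the gene for ChREBP responded to GK. In untreated hepatocytes Mlxipl measured 57.3, 41.9 and 34.4 CPM in mice 1, 2 and 3 (44.5 ± 11.7, SD, n = 3). With GK it measured 87.6, 87.6 and 104 CPM (93.0 ± 9.34). All GK samples lay above all untreated samples, and the ratio within a mouse was 1.53, 2.09 and 3.01. Groups with no overlap in this direction were found for 3.02% of the genes tested.

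GK alone against untreated gave a log2 fold change of 1.06 for Mlxipl (SE 0.28) and an adjusted p of 0.467 by edgeR, so Mlxipl was not called. A call here is an adjusted p under 0.05 with a fold of at least 1.3 or at most 0.7, and 1 gene of 12177, or 0.00821%, was called higher. Blocking the fit on the mouse gave 1.12 (SE 0.16, adjusted p = 0.000752), and Mlxipl was then called, beside 0.345% of genes called higher. Samples of the same mouse deviated together, and Mlxipl was highest in mouse 1 in 9 of the 10 conditions.

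Against the 5 conditions of endogenous GK combined, GK alone gave 0.58 (SE 0.21, adjusted p = 0.367), not called, where 0.394% of genes were called higher. Blocked on the mouse it gave 0.65 (SE 0.15, adjusted p = 0.0166), called, beside 1.3% of genes. The ratio of GK to the mean of those 5 conditions was 1.05 in mouse 1, 1.65 in mouse 2 and 2.07 in mouse 3. Leaving out mouse 1 gave 0.90 (adjusted p = 0.00343), called without that block, and the lowest value on leaving out a mouse was 0.37.

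The GKRP vectors also went with a higher level of Mlxipl at endogenous GK. With hP it measured 84.6, 54.3 and 51.7 CPM in mice 1, 2 and 3 (63.5 ± 18.3). With hL it measured 87.9, 65.8 and 56.0 CPM (69.9 ± 16.3). The lowest mouse under hL was close to the highest untreated mouse, at 57.3 CPM, so that the groups overlapped.

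With mP Mlxipl measured 93.9, 53.3 and 54.9 CPM (67.3 ± 23.0). With mL it measured 94.0, 49.7 and 54.0 CPM (65.9 ± 24.4). All 12 samples with a GKRP vector exceeded the untreated sample of the same mouse, by 1.19 to 1.64 times, although every vector group overlapped the untreated group across mice.

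The mean of the 4 vectors against untreated gave a log2 fold change of 0.58 (SE 0.23, adjusted p = 0.314), not called, where 1.49% of genes were called higher. Under the mouse block it was 0.57 (SE 0.13, adjusted p = 0.00619), called, beside 3.1% of genes. Leaving out mouse 1 gave 0.51, called (adjusted p = 0.0218). Singly, hL gave 0.65 (adjusted p = 0.556), mP 0.60 (0.673), mL 0.57 (0.760) and hP 0.51 (0.943), none called, where the share of genes called higher was 0.805% for hL, 0.994% for mP, 0.912% for mL and 0.706% for hP. In the blocked fit hL (adjusted p = 0.0173) and mP (0.0342) were called, beside 2.51% and 2.41% of genes, while mL (0.0523) and hP (0.0889) were not, at 2.49% and 1.95% of genes. These comparisons share the untreated samples.

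When GK was overexpressed, the GKRP vectors did not raise Mlxipl further. With GK+hP it measured 105, 59.1 and 58.8 CPM in mice 1, 2 and 3 (74.4 ± 26.8). With GK+hL it measured 76.4, 61.5 and 60.6 CPM (66.2 ± 8.88). In mice 2 and 3 these values lay below those of GK alone, while GK+hP of mouse 1 lay above it.

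With GK+mP Mlxipl measured 85.2, 66.5 and 70.4 CPM (74.0 ± 9.82). With GK+mL it measured 99.0, 79.6 and 86.2 CPM (88.3 ± 9.85). Of the 12 samples with GK and a vector, 10 were below and 2 above GK alone in the same mouse, with ratios from 0.567 to 1.20. Both that were above came from mouse 1, and all 12 exceeded untreated of the same mouse, by 1.33 to 2.503 times.

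The mean of the 4 vectors with GK against GK alone gave -0.30 (SE 0.21, adjusted p = 0.793) and, blocked on the mouse, -0.35 (SE 0.12, adjusted p = 0.0774). Neither was called, where 0.501% of genes were called lower without the block and 1.42% with it. Without mouse 1 the value was -0.51 (adjusted p = 0.0149), just short of the fold set for a call, without mouse 3 it was -0.17, and with the transcript length offset it was -0.06. Singly, the log2 fold changes were -0.49 for hL, -0.33 for mP, -0.32 for hP and -0.07 for mL, and none was called in either fit. Without the block, 0.00821% of all genes were called for hL, 0.271% for mP, 0.107% for hP and 0.00821% for mL.

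Averaged over the GKRP vectors, the difference made by GK in Mlxipl was small. GK with a vector against the same vector gave 0.18 (SE 0.14, adjusted p = 0.872), higher in 9 of 12 pairs, where 0.0164% of genes were called. The ratio within a mouse ran from 0.870 to 1.60. Adding GK took the mean from 65.9 to 88.3 CPM for mL and from 63.5 to 74.4 for hP. It went from 67.3 to 74.0 for mP and from 69.9 to 66.2 for hL. The difference between the GK effect without GKRP and the mean GK effect with the 4 vectors was 0.88 in log2 units (SE 0.31, unadjusted p = 0.00906, adjusted p = 1.0). No gene was called by edgeR in that test, with 92 genes higher and 86 lower at an unadjusted p under 0.05, and blocked on the mouse the value was 0.92 (adjusted p = 0.0894). Of 14 alternatives 2 called it for Mlxipl and 12 did not. The 2 were DESeq2 with the mouse block, a fit chosen after seeing the data, at 0.91 (adjusted p = 0.000264), and edgeR without mouse 1, at 1.03 (adjusted p = 0.0354). Here GK alone was set against no virus, but GK with GKRP against cultures that already had virus. Exposure to virus cannot be told apart from this difference.

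Between the 446P and 446L forms of GKRP no difference in Mlxipl was called. Against the 446P form of the same species, 446L gave -0.17 (SE 0.28) for human and 0.25 (SE 0.28) for mouse GKRP with GK, and 0.14 (SE 0.28) and -0.03 (SE 0.28) at endogenous GK. None of the 4 was called in either fit, where 0.0164% of genes were called for mouse GKRP with GK and 0.0% in the other 3, and each value lies within 1 standard error of 0. In order of mean level Mlxipl ran from GK (93.0 CPM) through GK+mL (88.3), GK+hP (74.4), GK+mP (74.0), hL (69.9), mP (67.3), GK+hL (66.2), mL (65.9) and hP (63.5) to untreated (44.5), a ratio of 2.09 between the ends. Each neighbour in that order overlapped the next.

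**Figure D1:**
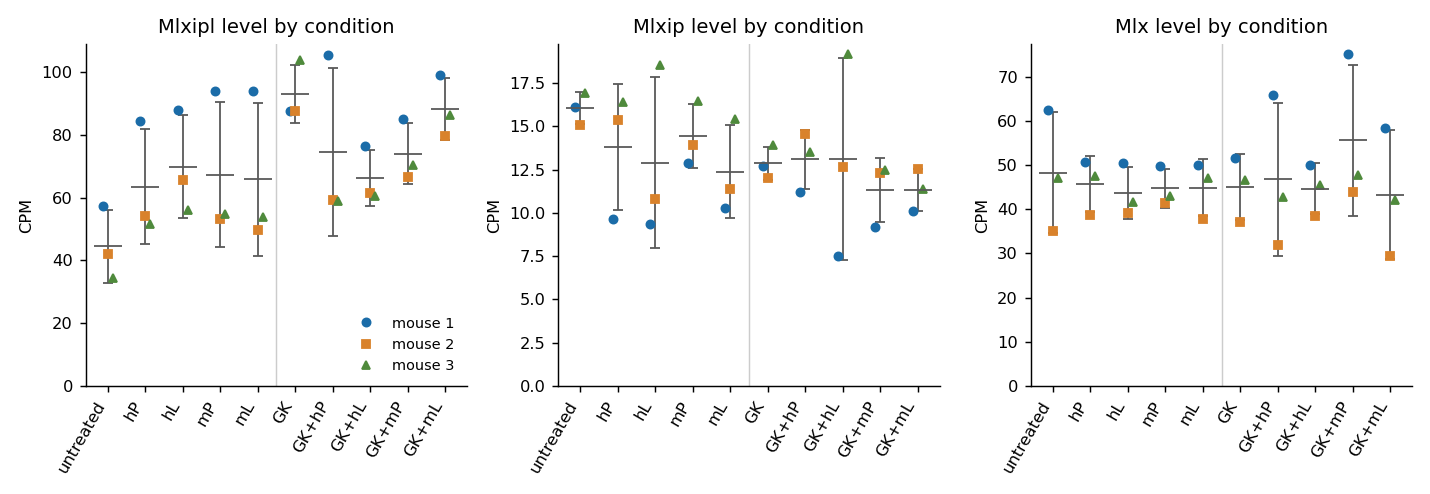
Levels of Mlxipl, Mlxip and Mlx in CPM (linear axes from 0) in the 10 conditions, with 1 point per mouse and a bar at the mean with SD (n = 3). The 3 GK points of Mlxipl (87.6 to 104 CPM) lie above the 3 untreated points (34.4 to 57.3), while for Mlx the order of the mice is the same in 10 of 10 conditions.

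**Figure D2:**
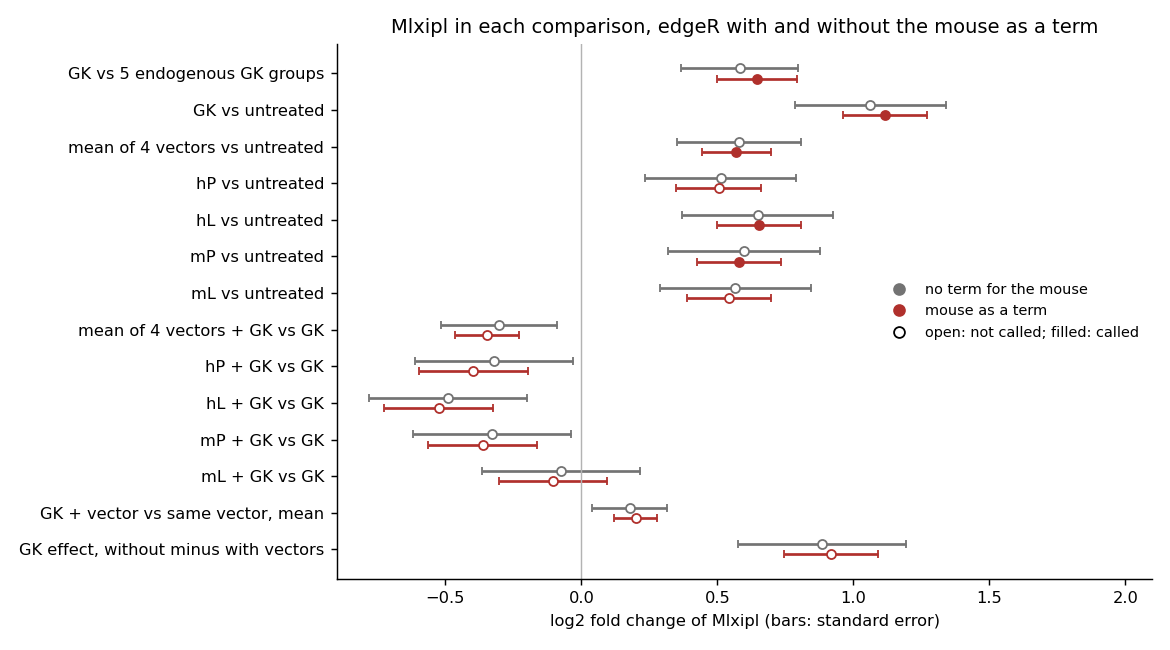
Log2 fold change of Mlxipl in 14 comparisons, fitted by edgeR without the mouse in the model (grey) and with it (red), with bars for the standard error and filled points for calls. The values hardly move between the fits, but 5 comparisons are called with the mouse and none without it.

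Mlxip, the gene for MondoA, was lower with GK by a small margin that no fit called. It measured 16.1, 15.1 and 16.9 CPM untreated (16.04 ± 0.928, n = 3) and 12.7, 11.99 and 13.9 CPM with GK (12.9 ± 0.966). The groups did not overlap, a pattern shown in this direction by 3.49% of the genes tested, and the ratio within a mouse was 0.787, 0.796 and 0.822. The log2 fold change was -0.32 against untreated (SE 0.26, adjusted p = 1.0) and -0.12 against the 5 combined conditions (SE 0.20, adjusted p = 1.0), and blocking on the mouse called neither.

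Under the GKRP vectors Mlxip spread widely between mice. With hL it measured 9.37, 10.8 and 18.5 CPM in mice 1, 2 and 3, and with GK+hL 7.51, 12.6 and 19.2 CPM, the lowest and highest samples of the series among them. With mP it measured 12.9, 13.9 and 16.5 CPM, and with GK+mP 9.19, 12.3 and 12.5 CPM. In these 4 conditions mouse 1 was lowest and mouse 3 highest.

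Mlxip measured 9.62, 15.3 and 16.4 CPM with hP and 11.2, 14.5 and 13.5 CPM with GK+hP. With mL it measured 10.3, 11.4 and 15.4 CPM, and with GK+mL 10.1, 12.5 and 11.4 CPM. Mouse 1 was lowest in all 8 conditions with a vector. The mean of the vectors gave -0.26 (SE 0.20, adjusted p = 0.898) at endogenous GK and -0.08 (SE 0.21, adjusted p = 1.0) with GK. Of the 12 samples with a vector at endogenous GK, 10 lay below untreated of the same mouse. The condition means ran from 11.3 CPM under GK+mP to 16.04 CPM untreated, a ratio of 1.42, and every neighbour in the order overlapped. Mouse 1 had the highest Mlxip in 0 of the 10 conditions, whereas it had the highest Mlxipl in 9. Mlxip was called in none of the 6 main comparisons under any of the alternatives tried. Fitted with an offset for transcript length, its difference between GK and untreated had the other sign, at 0.37.

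Mlx, the obligate partner, had the smallest ratio of highest to lowest condition mean of the 3 in CPM, though not its narrowest spread over single samples. It measured 62.4, 35.2 and 47.1 CPM untreated (48.2 ± 13.7, n = 3) and 51.5, 37.0 and 46.5 CPM with GK (45.0 ± 7.39). The groups overlapped, and the log2 fold change was -0.10 against untreated (SE 0.26) and -0.01 against the 5 combined conditions (SE 0.19). The vectors gave -0.11 at endogenous GK (SE 0.20) and 0.07 with GK (SE 0.21), and these signs changed when single mice were left out.

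With the vectors at endogenous GK, Mlx measured 49.7 to 50.7 CPM in mouse 1, 37.7 to 41.3 CPM in mouse 2 and 41.5 to 47.6 CPM in mouse 3 over hP, hL, mP and mL. With GK and a vector it ran from 49.9 to 75.0 CPM in mouse 1, 29.4 to 43.9 in mouse 2 and 42.1 to 47.7 in mouse 3. The vectors themselves differed little within a mouse at endogenous GK. The highest mean of Mlx was 55.5 ± 17.0 CPM under GK+mP and the lowest 43.3 ± 14.6 CPM under GK+mL, a ratio of 1.28. Mlx followed the animal: the order mouse 1, mouse 3, mouse 2 held in 10 of 10 conditions. The 2 cultures of a mouse differed by 1.01 to 1.21 times for Mlx, 1.08 to 1.46 for Mlxip and 1.00 to 1.27 for Mlxipl. The last lies below each of the within-mouse ratios of GK to untreated for Mlxipl. It exceeds the lowest ratio of a GKRP vector to untreated, 1.19, and the ratio of GK to the 5 combined conditions in mouse 1, 1.05.

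The reads of Mlxipl were divided by Salmon among the 10 annotated transcripts. Mlxipl-201, the full-length coding α form, held 35.3% of all Mlxipl reads. The forms annotated for nonsense-mediated decay came next: Mlxipl-207 held 23.0%, Mlxipl-204 16.3%, Mlxipl-206 14.4% and Mlxipl-203 4.10%. The short forms Mlxipl-208, Mlxipl-205 and Mlxipl-202 held 3.53%, 1.80% and 0.517%, the β form Mlxipl-210 1.03% and Mlxipl-209 0.0897%.

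Most of that sequence is shared. Mlxipl-201 has 460 bases at its 3′ end that no other of these 10 transcripts holds, while Mlxipl-203 and Mlxipl-207 differ by 7 bases at the start of 1 exon. The division was correspondingly unsteady between cultures of the same mouse. In untreated mouse 2 the share of Mlxipl-207 was 11.5% in one culture and 60.1% in the other, with Mlxipl-204 at 45.6% and 0%. In untreated mouse 3 the share of Mlxipl-201 was 65.1% and 30.5%. Mlxipl-203 was at 0 in 25 of 36 cultures and Mlxipl-204 in 13, whereas Mlxipl-201 and Mlxipl-206 were above 0 in all 36.

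**Figure D3:**
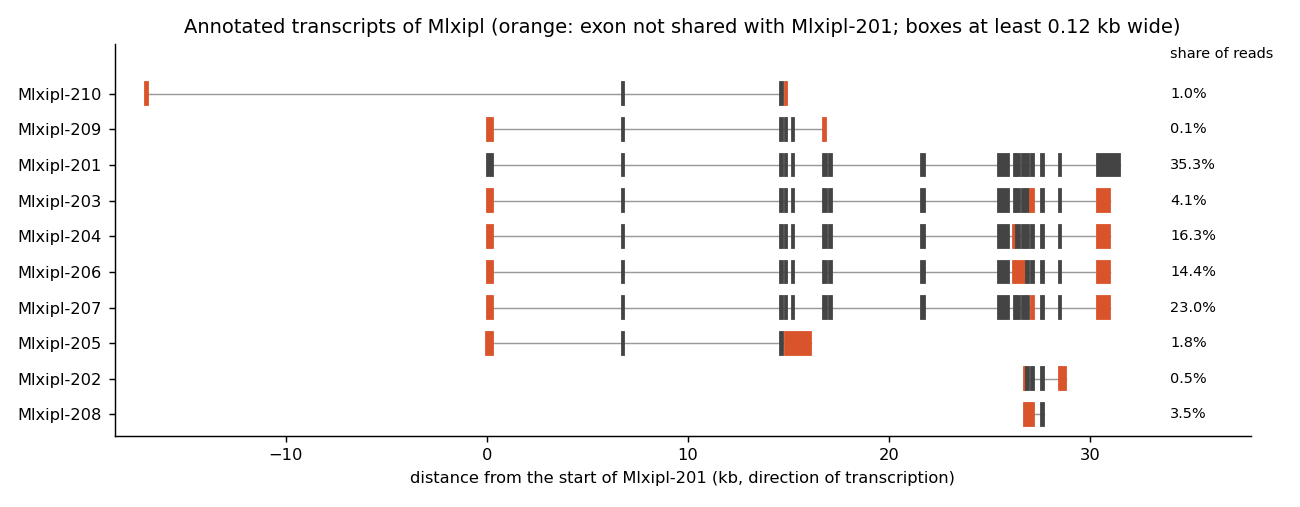
Exons of the 10 annotated transcripts of Mlxipl against distance from the start of Mlxipl-201 in kb, with each transcript's share of all Mlxipl reads at the right. Exons with both ends as in Mlxipl-201 are grey and others orange, and the β form Mlxipl-210 begins 17011 bases upstream.

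The share of Mlxipl-201 was 35.3, 48.1 and 40.8% in mice 1, 2 and 3 with GK (41.4 ± 6.46) and 31.03, 20.2 and 43.3% untreated (31.5 ± 11.5). The groups overlapped, and the difference of 9.90 points gave p = 0.3 in a two-sided exact permutation test, where 3 against 3 cannot go below 0.1. The difference was 0.883 points without mouse 2 and 16.1 points without mouse 3. Against the 15 samples of endogenous GK (32.4%) the difference was 8.94 points (exact permutation p = 0.0895 over 816 assignments), and samples of 1 mouse are not independent there.

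In reads, Mlxipl-201 was higher with GK than in the 5 combined conditions with a log2 fold change of 1.05 (SE 0.22) and an adjusted p of 0.0949 by edgeR over 35269 transcripts. It was not called, where 0.0482% of transcripts were called. Blocking on the mouse gave 1.06 (adjusted p = 0.0300), called, beside 0.173% of transcripts called higher. Against untreated it gave 1.48 (adjusted p = 1.0). Without mouse 2 or mouse 3 the fit without the block gave 0.92 and 0.94 (adjusted p = 1.0 in both). The error of Salmon's division is part of neither fit. On simulated data most calls that the transcript fit without the block made for changes of the size seen here were false. The fit with the block was not tried on simulated data, so its rate of false calls is not known and its call is given with that reservation.

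ChREBP-β could not be measured at this depth. Mlxipl-210 received 155 reads in all 36 cultures together, was at 0 in 15 of them and reached at most 20.2 reads in 1 culture. Summed over cultures it had 31.9 reads with GK (0.834 CPM of the mapped reads) and 15.04 untreated (0.406 CPM), with 1 of 6 and 3 of 6 cultures at 0. The other sums ran from 32.8 reads under GK+mL (1.96 CPM) and 23.7 under hP (1.23 CPM) to 0 in the 3 cultures of GK+mP, where a count of 0 allows up to 3 reads. No difference was detectable, and none of the 4 comparisons was called for Mlxipl-210. The annotated model is 412 bases long, so that β fragments past its end are counted under other transcripts.

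By comparison, Mlxip-201 held 97.8% of the Mlxip reads. Mlx reads went mainly to Mlx-202 (33.9%), Mlx-201 (23.9%) and Mlx-206 (22.1%), the last with no coding sequence defined.

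**Figure D4:**
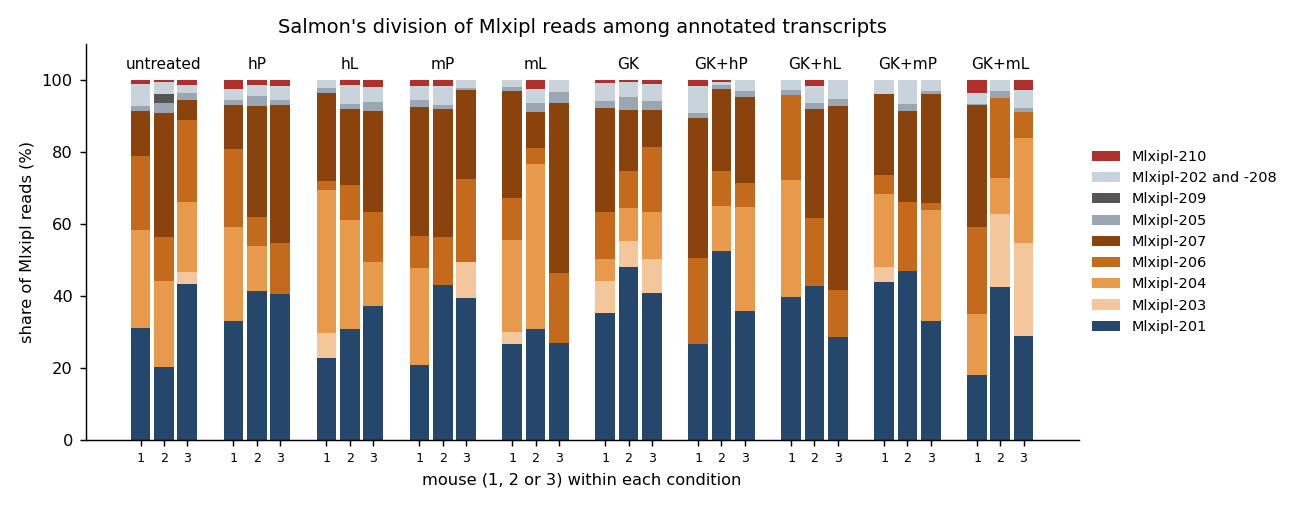
Share of Mlxipl reads (%) that Salmon gave to each annotated transcript in the 30 samples, stacked for mice 1 to 3 within each condition. Mlxipl-201 (dark blue) and the forms annotated for decay (orange shades) change places between mice of 1 condition, and Mlxipl-210 (red) stays a thin cap.

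Of the other genes of the Mlx, Max and Myc network, 11 of 13, members included, passed the filter, and none was called in the 4 comparisons of GK and of the vector means. In the fit blocked on the mouse Mycl, a Myc paralogue that pairs with Max, was higher with GK than in the 5 combined conditions (0.87, adjusted p = 0.0465, beside 1.3% of genes called higher). Mnt, a repressor that pairs with Max and Mlx, was higher in that fit with the GKRP vectors and GK (0.71, adjusted p = 0.0159, beside 2.92% of genes). At endogenous GK it was also higher with the vectors (0.71, adjusted p = 0.0171, beside 3.1% of genes).

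A list of 29 genes that act on ChREBP, all tested, held the LXR, FXR and thyroid hormone receptors, O-GlcNAc enzymes, AMPK, 14-3-3 proteins and exportin, among others. With GK against the 5 combined conditions 1 was called, higher, where 0.394% of all genes were called higher. With the vectors at endogenous GK 1 was also called higher, where 1.49% of all genes were. None was called in the other 2 of these comparisons. The gene called with the vectors was Gckr, the gene for GKRP, higher at endogenous GK by 4.25 (adjusted p = 0.000492), which counts the mouse GKRP vectors themselves. The median of the 29 was 0.03 with GK against untreated and -0.01 for the vectors at endogenous GK, against -0.00 for all genes in both.

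Genes known as ChREBP targets in liver were read beside the genes for ChREBP and its partners. Of 30 listed, 27 were tested. With GK against the 5 combined conditions 14 were called higher and 0 lower (median 0.99 on the log2 scale, all genes -0.01), where 0.394% of genes were called higher. Called or not, 26 lay higher and 1 lower. Without mouse 2 the number of targets called was 8, without mouse 3 it was 6 and with the transcript length offset it was 7. The number of all genes called higher fell as well, from 48 to 20, 8 and 13 in these fits. Against untreated 27 of 27 lay higher (median 0.95), but only Tkfc, the triokinase of fructose metabolism, was called (1.23, adjusted p = 0.000232). Without mouse 2 or without mouse 3 no target was called, and no other gene was. The mouse block called 16 of the targets against untreated, all higher, beside 0.345% of genes.

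In the first of these comparisons Txnip, an arrestin that limits glucose uptake, rose by 3.10 (SE 0.47, adjusted p = 0.000345), G6pc1, the catalytic subunit of glucose 6-phosphatase, by 3.17 (SE 0.55, adjusted p = 0.00217) and Pklr, liver pyruvate kinase, by 1.58 (SE 0.26, adjusted p = 0.00102). Rgs16, a regulator of G protein signalling, rose by 3.14, Angptl8, a hepatokine, by 2.43, Klf10, a transcription factor, by 2.24 and Arrdc4, a second arrestin, by 1.89. Fasn, fatty acid synthase, rose by 0.85 (adjusted p = 0.0192). Fgf21, a hepatokine, was below the filter, at 0 to 3.12 CPM.

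With the GKRP vectors and GK, against GK alone, 12 of the 27 targets were called lower and 0 higher (median -0.84), where 0.501% of genes were called lower. Called or not, 26 lay lower and 1 higher. Pklr fell by 1.37 (adjusted p = 0.00155), Txnip by 2.22 (0.00345), Klf10 by 1.59 (0.000529), Angptl8 by 1.70 (0.000529) and Arrdc4 by 1.35 (0.00275). G6pc1 (-2.28, adjusted p = 0.0584) and Fasn (-0.61, adjusted p = 0.138) did not pass. Without mouse 3, 2 of the 27 were called lower, where 4 genes in all were. Under the mouse block 18 of the 27 were called lower, beside 1.42% of genes.

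At endogenous GK, 21 of the 27 targets lay lower under the vectors than untreated and 6 higher (median -0.25), and 1 was called. Pklr measured 115, 55.6 and 96.7 CPM untreated in mice 1, 2 and 3 and, for example, 69.5, 33.9 and 52.3 CPM with hP, lower in every mouse, while Mlxipl was higher in every mouse. The mean of the 4 vectors against untreated gave -0.81 for Pklr (SE 0.25, adjusted p = 0.115), called under the mouse block (-0.80, adjusted p = 4.34e-05). Txnip fell by 1.69 (SE 0.44, adjusted p = 0.0403), the only target called, where 0.402% of genes were called lower.

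Txnip differed widely between the mice. It measured 16.6, 44.8 and 123 CPM untreated and 15.1, 17.3 and 22.1 CPM with hP, a small step in mouse 1 and a large one in mouse 3. Under the mouse block 5 targets were called lower, where 1.05% of genes were (Pklr, Txnip, Klf10, Rgs16 and Slc2a2, the glucose transporter GLUT2). The coactivator gene Ppargc1b was the 1 target called higher (1.46), beside 3.1% of genes. Fasn stood at 0.12 and 0.11 in the fits without and with the mouse (adjusted p = 1.0 and 0.832).

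**Figure D5:**
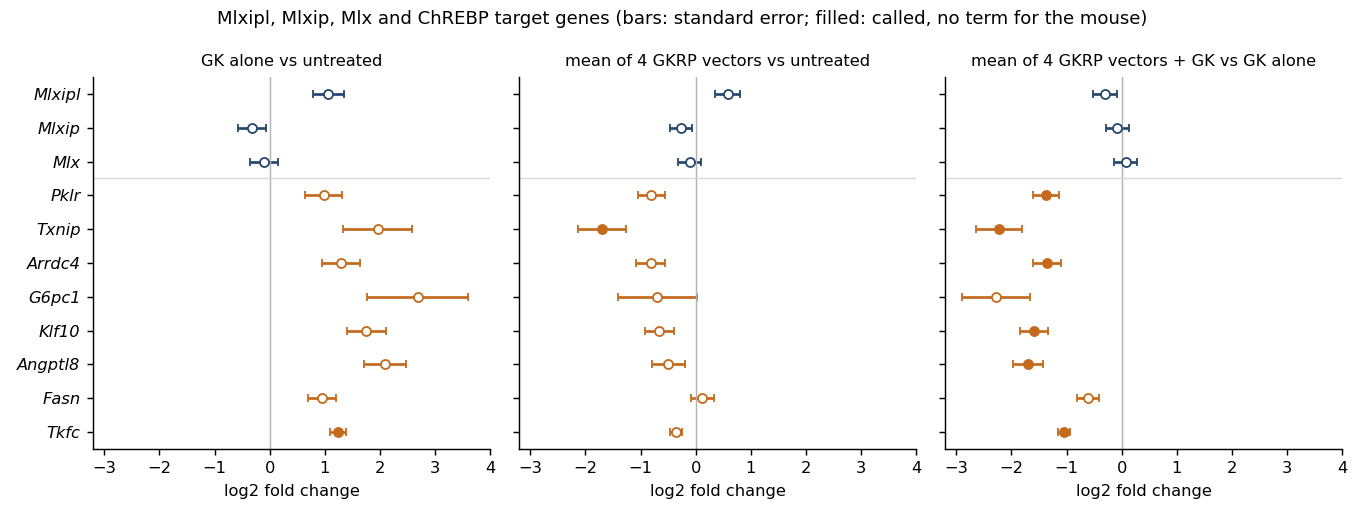
Log2 fold changes with standard errors of the 3 genes (blue) and 8 ChREBP targets (orange) for GK against untreated, the mean of 4 GKRP vectors against untreated and the same vectors with GK against GK alone, from the fit without the mouse, with filled points for calls. In the middle panel Mlxipl lies to the right of 0 (0.58) while Pklr (-0.81) and Txnip (-1.69) lie to the left.

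Across the 30 samples, with each mouse centred at its own mean, Mlxipl had a positive correlation with 27 of the 27 targets (median Pearson r 0.50, all genes 0.00). Mlxip was positive with 7 (median -0.18) and Mlx with 2 (median -0.16). These samples share conditions and libraries, and the values are descriptions with no test.

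The genes most like Mlxipl by this measure were Fgfr3, a growth factor receptor (r = 0.81), Ank (0.80), Stat5b, a transcription factor downstream of growth hormone (0.79), Vwce (0.78) and Sbk1 (0.77). Without centring, none of the same 5 led, and by rank correlation 2 of the 5 did. For Mlxip the leading genes, Gm16576, Cbx5, Dennd11, Trp53inp1 and Ints8, ran from 0.68 to 0.67, and for Mlx those, Atp5mg, Rps6ka2, Gm20412, Dctn5 and Ints11, from 0.69 to 0.66.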

How the data were processed

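Hepatocyte RNA was sequenced in 36 cultures, and RNA with an integrity number above 6 was used per the study's methods. The authors quantified reads with Salmon 1.4.0 against Gencode M26 transcripts (GRCm39), and each deposited file holds expected counts, TPM and effective lengths per transcript, with no gene-level values. Expected counts were summed per gene with the M39 annotation, which held 137570 of 139225 transcripts. The rest took 0.392 to 0.639% of reads. Transcript structures and upstream windows also follow M39, where Mlxipl-201 has 3639 bases against 3622 as quantified. The 2 cultures of a mouse and condition were summed, giving 30 samples of 3910281 to 14767937 reads, and counts were rounded.

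Genes passing filterByExpr were scaled by TMM and tested with edgeR 4.0.16's quasi-likelihood test (R 4.3.3) over all 12177 genes with Benjamini-Hochberg adjustment, without a mouse term since the study names none. Because cultures came from the same 3 animals, a fit with the mouse as a block was run beside it: deviations of same-mouse samples correlated (mean r 0.223 over 135 pairs, against -0.110 over 270 pairs of different mice), and the biological coefficient of variation was 0.323 without and 0.231 with the block. Other alternatives were DESeq2 1.42.0, RLE scaling, other filters, a length offset, single cultures, only the samples compared, and leaving out each mouse. DESeq2 with the block and the GK fit without replicate 5 were chosen after seeing the data. Fits without the block were tested on simulated data, where false calls were far fewer in the gene test than in the transcript test. P-values of the fit without the block count the 30 samples as independent, although they come from 3 animals. With the block they measure the spread left once the level of each animal is taken out. The limit of 3 reads for a count of 0 covers counting error only.

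The members and the gene lists were chosen with earlier results of these data known. Genes named were the 3 members, at most 6 genes called per list and comparison by smallest adjusted p, Pklr, Txnip, Arrdc4, G6pc1, Klf10, Angptl8, Fgf21 and Fasn in any case, and the 5 genes most correlated with each member (log2 CPM, prior count 2). Some genes of the lists enter the counts and medians but are not reported here by name.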

Additional observations from a re-analysis of the deposited data

Results flagged for a closer look

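In the 10 sets of 6 values examined, 2 had a value far from the other 5. The sets were the levels of Mlxipl, Mlxip, Mlx and Gckr and the share of Mlxipl-201, each in the untreated and in the GK cultures. Chance alone gives such a gap in about 1 in 20 groups of 6 independent values. The cultures of a set are 2 from each of 3 mice, and the sets share cultures, so that rate does not strictly apply. Gckr reached 1462 CPM in 1 of the 6 GK cultures, a culture of mouse 3 that received no GKRP vector by its label. The share of Mlxipl reads given to Mlxipl-201 reached 64.8% in 1 of the 6 GK cultures, of mouse 2, where the second culture of that mouse gave 42.0%.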

How the results depend on the processing

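For Mlxipl, 71 of 85 alternative values over 6 comparisons stayed on the same side of the threshold, 14 were now called and 0 had the other direction. The mouse as a replicate block called Mlxipl for GK against the 5 combined conditions (0.65), GK against untreated (1.12) and the vectors at endogenous GK (0.57), and Mlxipl-201 in the first (1.06). The 36 cultures as samples gave 0.64, 1.05 and 0.59, called, and DESeq2 with the block 0.65, 1.11 and 0.56 and, for the difference of GK effects, 0.91. Without the block DESeq2 gave an adjusted p of 0.0543 for GK against untreated. Leaving out each mouse gave 0.37 to 0.90, 0.81 to 1.32, 0.51 to 0.65 and 0.69 to 1.03 in these 4 comparisons, called without mouse 1.

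Mlxip and Mlx were called by no alternative in the 6 comparisons, and 4 and 8 of their 85 values had the other sign. With the transcript length offset Mlxip stood at 0.41, 0.37 and 0.38 for GK against the combined conditions, GK against untreated and the difference of effects, Mlxipl at 0.27 for hP and 0.78 for mL with GK, -0.015 for hL against hP and 0.019 for mL against mP at endogenous GK, and Fasn at -0.014 under the vectors. The cause was not tested. Without a filter Mlx stood at 0.017 for GK against the combined conditions. Leaving out each mouse gave Mlx -0.030 to 0.0021, -0.16 to 0.019, -0.066 to 0.13, -0.21 to 0.021, -0.068 to 0.17 and -0.33 to 0.087 in the 6 comparisons, Mlxip -0.18 to 0.053 for the vectors with GK, and Mlxipl -0.22 to 0.0062 for mL with GK and -0.27 to 0.054 for hL against hP with GK. The block changed no call of Mlxip or Mlx. Depth limits Mlxip and, most of all, Mlxipl-210.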
